A study of Mus musculus with 8 samples.

Results

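The 9 genes described here carry vitamin A and its active form, retinoic acid, through the lung: the carriers Rbp4, Crabp1 and Crabp2, the uptake receptor Stra6, the synthetic enzyme Aldh1a2, the degrading enzyme Cyp26b1 and the receptors Rara, Rarb and Rarg. They were chosen as every probe set annotated to one of these symbols alone, which gave 10 of the 45037 probe sets on the array other than Affymetrix controls. Rarg had 2 probe sets and the other 8 genes had 1 each. Lung RNA was measured in 8 FVB/N mouse pups, 4 cases (D04, D34, D48 and D52) and 4 controls (D02, D40, D50 and D58), with 1 Affymetrix array per pup. All 8 carry the same genotype entry, a line with an FGF18 transgene for the lung, made of SP-C-rtTA and (teto)7-FGF18. In this line rtTA is made in distal lung epithelium, under the promoter of surfactant protein C, and with doxycycline it switches on FGF18 behind tet operator sites. Per the labels, the pups were simple and double transgenic littermates in 4 pairs, picked for induction of the transgene. The sources used here do not tie a title to a litter, and they give neither the pups' age nor the timing of doxycycline.

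Retinol travels in blood bound to RBP4, enters cells that carry the receptor STRA6, and is oxidised to retinaldehyde and then by ALDH1A enzymes to retinoic acid. CRABP proteins bind retinoic acid in the cytoplasm, CYP26 enzymes break it down, and the nuclear receptors RARα, RARβ and RARγ bind DNA with RXR partners and switch target genes on when the ligand is present. In the lung, retinoids are known for their part in branching and in the formation of alveoli, where interstitial fibroblasts store retinyl esters, and the mesothelium is known for ALDH1A2. Rarb is itself a classical target of retinoic acid through an element in its promoter.

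A repeat of the kind these receptors are known to bind lies in the Rarb promoter that RefSeq gives. It is shown because Rarb was the 1 member whose groups did not overlap. The window runs from 250 bases before to 50 bases after the start site, on the minus strand of chr14:16575427-16575726 (GRCm38.p6). Capitals mark a direct repeat of hexamers spaced by 5 bases, at 53 to 37 bases before the start site.
Rarb: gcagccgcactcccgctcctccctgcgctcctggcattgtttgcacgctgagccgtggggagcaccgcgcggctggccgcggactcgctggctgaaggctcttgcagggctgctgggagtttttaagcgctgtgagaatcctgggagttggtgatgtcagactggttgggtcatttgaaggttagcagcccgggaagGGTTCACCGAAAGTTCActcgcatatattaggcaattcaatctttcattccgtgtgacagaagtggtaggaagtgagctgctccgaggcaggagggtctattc
The search took AGGTCA, or the same hexamer with G in the first place, T in the third place or both, in tandem with any 5 bases between, on both strands. A promoter entry was found for 8 of the 9 members, all but Crabp2 (16 windows in all), and Rarb was the only one of the 8 with a match. Over all RefSeq promoters of the same length, 0.0974% (32 of 32851) held it. With spacers of 1 or 2 bases none of the 8 matched, which says only that these letters are not in these windows. A match describes these letters and not binding, and the sources used here do not say which Rarb transcripts the probe set detects.

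The arrays had median log2 intensities of 7.02 to 7.12 and pairwise correlations of 0.983 to 0.996, and their number limits the precision. Fgf18, the transgene, read log2 10.82, 12.09, 9.82 and 7.66 in cases D04, D34, D48 and D52, against 7.05, 7.76, 7.11 and 7.07 in the controls (D02, D40, D50, D58). The library labelled Case D52 lay above controls D02, D50 and D58 but below control D40, so its Fgf18 was within the control range. Each member's difference is given with and without this library. Xist and Y-linked genes marked cases D04 and D34 and control D02 as female and the remaining 5 as male, so sex was not balanced between the groups. Values are log2 probe set intensities, differences are case minus control, and levels are not set against each other between probe sets. Probe sets with a mean below the 40th percentile (log2 6.51) were left out of the test: of the 10 member probe sets 8 were tested, and those of Crabp1 and Stra6 were not. In bulk tissue, fewer cells of a type and less RNA per cell cannot be told apart.

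No member passed the test (limma, Benjamini-Hochberg adjusted over 27022 probe sets, threshold 0.05, smallest adjusted p = 0.786). Over all probe sets 0.0074% passed, which is 2 probe sets, both for Abca3 and both lower in cases. The remaining tested Abca3 probe set had the opposite sign. At an unadjusted p under 0.05, 2 of the 8 tested member probe sets were lower (Aldh1a2 and Rarb) and 0 higher, where 4.02% of all probe sets were lower and 1.94% higher. The mean was lower in cases for 7 of the 8, where 53.9% of all probe sets had a lower mean, and the members' median difference was -0.12 log2 against -0.01 over all probe sets. With the library labelled Case D52 omitted, again 0 members passed (smallest limma adjusted p = 0.204), where 0.0555% of probe sets did, and the same 2 had an unadjusted p under 0.05 and were lower, with 7.15% of all probe sets lower and 4.34% higher at that p. In the fit with no filter on low values 0 of the 10 passed, where 0.00444% of all probe sets did.

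**Figure D1:**
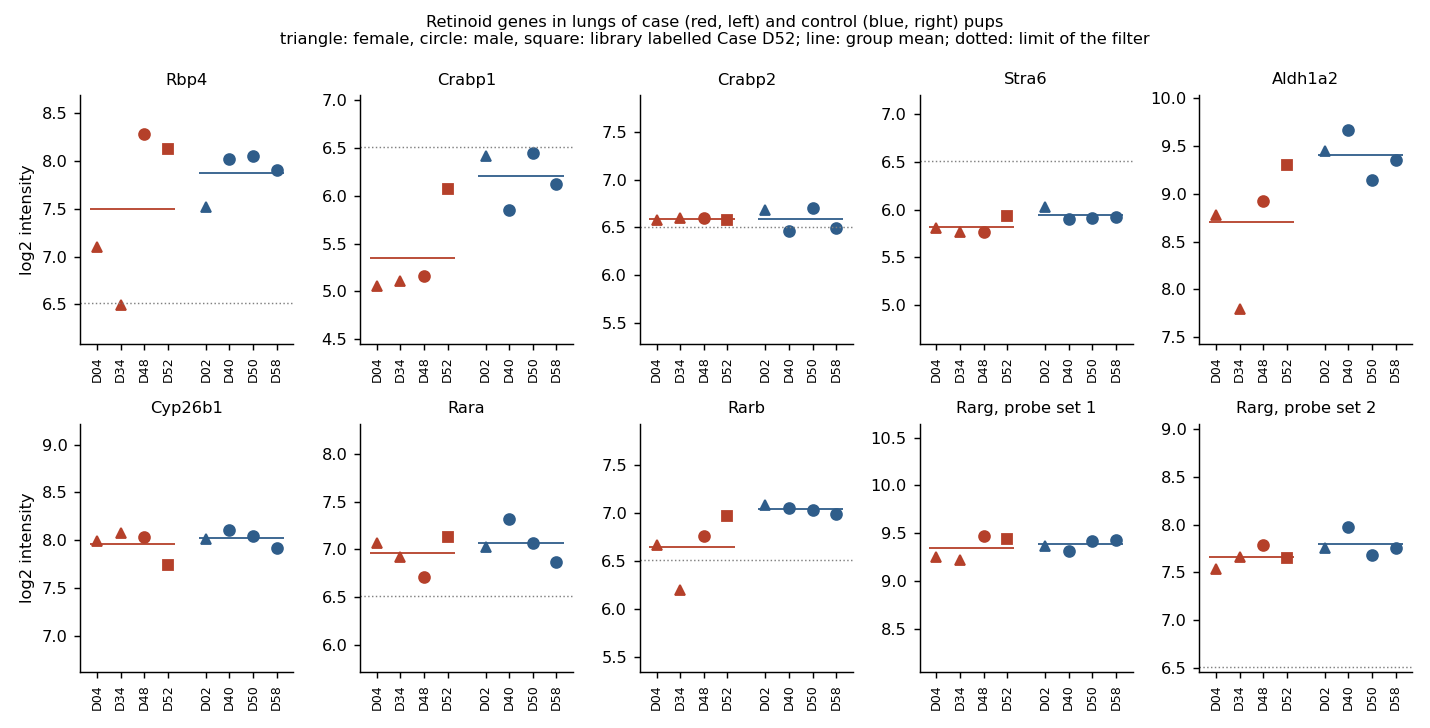
Log2 intensity (y axis, a span of equal size in every panel) of the 10 probe sets in each case pup (red, left) and control pup (blue, right), with group means as lines. Crabp1, Stra6, Aldh1a2 and Rarb read lower in cases D04, D34 and D48 than in all controls, and Rbp4 was lowest in D34 (6.50). Of these Aldh1a2 and Rarb were tested with that pattern, which 7.04% of all tested probe sets had.

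**Figure D2:**
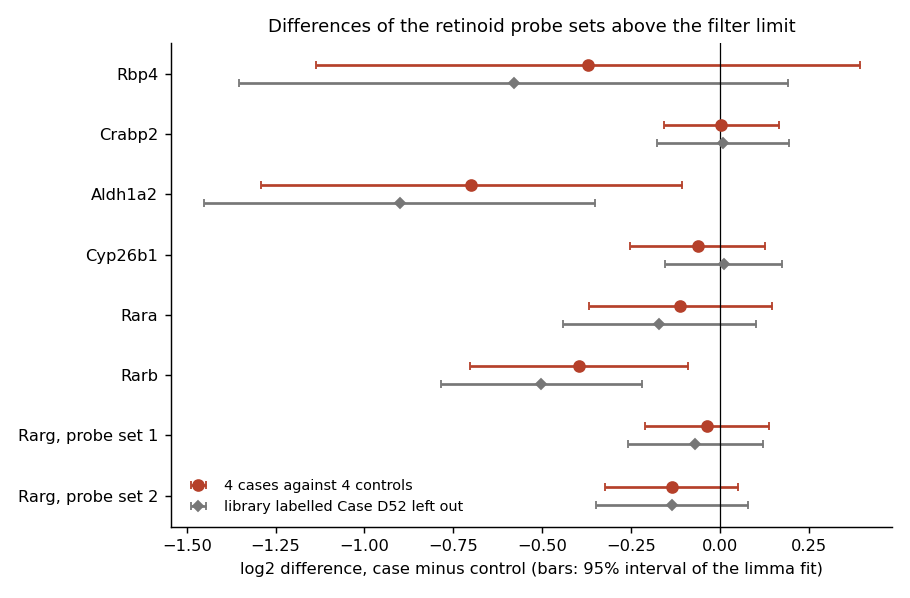
Log2 difference, case minus control, with its 95% interval for the 8 tested probe sets, with all pups (circles) and without the library labelled Case D52 (diamonds). The intervals of Aldh1a2 and Rarb lie below 0 before adjustment, and no adjusted p passed.

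Rbp4 (probe set 1426225_at, chromosome 19), the serum carrier of retinol, was widely spread among the cases. It read log2 7.10, 6.50, 8.28 and 8.13 in cases D04, D34, D48 and D52, against 7.52, 8.02, 8.05 and 7.90 in the controls (D02, D40, D50, D58). Cases D04 and D34 were below every control, and cases D48 and D52 were above every control. The means were 7.50 ± 0.85 in cases and 7.87 ± 0.24 in controls (SD, n = 4 each), a difference of -0.37 (SE 0.34, limma adjusted p = 0.828). With the library labelled Case D52 omitted it was -0.58 (limma adjusted p = 0.549), and without case D34 it was -0.036. Rbp4 had the largest SD over the 8 pups among the members (0.61).

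All 3 pups read as female had less Rbp4 signal than all 5 read as male, a split found in 3.27% of all tested probe sets. Each female case was below the female control, and each male case was above the male controls. With sex as a covariate the difference was -0.12 (SE 0.19), and among male pups alone it was 0.21, with means of 8.20 in 2 cases and 7.99 in 3 controls. No member passed with sex as a covariate, where 0.0148% of probe sets did, or among males, where 0.0222% did. An interaction of group and sex, added after these values were seen, gave -0.93 for Rbp4 (female minus male effect, SE 0.27, unadjusted p = 0.00742, limma adjusted p = 0.9999). Here 1.01% of probe sets had an unadjusted p under 0.05. This fit has a lone female control, assumed to vary like the other pups.

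Liver is the main source of circulating RBP4, and liver transcripts were also lower in the female pups of these arrays. Albumin (Alb) read 9.19, 9.44, 11.94 and 11.44 in cases D04, D34, D48 and D52, against 6.16, 10.20, 11.02 and 9.94 in the controls (D02, D40, D50, D58). Transthyretin (Ttr), which travels with RBP4 in blood, read 7.27, 7.62, 10.20 and 9.83 in the cases and 4.73, 8.32, 9.18 and 8.53 in the controls, in the same order. Of 10 liver markers 7 were tested, 0 passed, and their summed linear intensity ran from 1799 to 8894 in cases and from 682 to 4604 in controls. Both Rbp4 and the liver markers were low in D02, D04 and D34, but the liver markers were lowest in control D02 and Rbp4 in case D34. The part of liver transcripts or of sex in the Rbp4 values was not tested beyond the fits above.

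**Figure D3:**
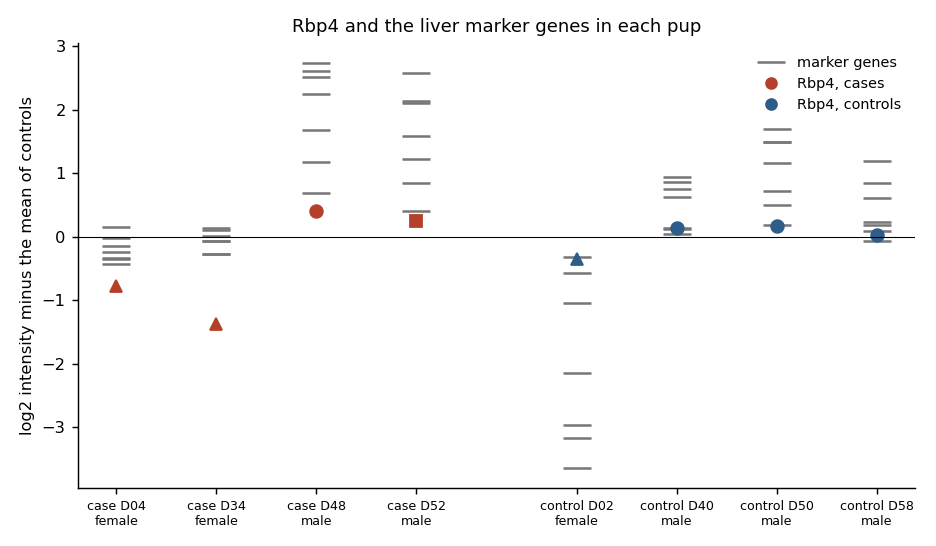
Log2 intensity minus the mean of controls (y axis) for Rbp4 (coloured points) and the 7 tested liver marker genes (grey dashes) in each pup, with sex as read from Xist and Y-linked genes. Cases D48 and D52 are the highest in all 7 markers and in Rbp4, and control D02 is the lowest in all 7 markers.

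Stra6 (1422723_at, chromosome 9), the membrane receptor that takes retinol from RBP4, was dim on every array and below the limit of the test. It read log2 5.80, 5.76, 5.77 and 5.94 in cases D04, D34, D48 and D52, against 6.03, 5.90, 5.91 and 5.93 in the controls (D02, D40, D50, D58). The first 3 cases were below every control and the library labelled Case D52 lay inside the range of the controls. The difference was -0.12 over all pups and -0.16 without that library. With no filter on low values its limma adjusted p was 0.716.

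Crabp1 (1448326_a_at, chromosome 9), a cytoplasmic carrier of retinoic acid, had the largest difference among the members, also at a dim probe set below the limit. It read log2 5.06, 5.11 and 5.16 in cases D04, D34 and D48, and 6.07 in D52, whose Fgf18 was within the control range, against 6.41, 5.85, 6.45 and 6.12 in the controls (D02, D40, D50, D58). Those 3 cases lay close together below all controls, while D52 read within the control range. The means were 5.35 ± 0.48 in cases and 6.21 ± 0.28 in controls (SD, n = 4 each), and the difference was -0.86 log2, or 1.81-fold lower in cases. A two-sided exact permutation test over the 70 arrangements gave p = 0.0571, where 0.0286 is the smallest possible. In the fit with no filter the limma adjusted p was 0.635 (unadjusted p = 0.00261), where 5.93% of all probe sets were lower at an unadjusted p under 0.05. Without the library labelled Case D52 the difference was -1.10, or 2.14-fold lower.

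Crabp2 (1451191_at, chromosome 3), the related carrier that hands retinoic acid to its receptors, showed no difference beyond the spread between pups. It read 6.58, 6.60, 6.60 and 6.57 in cases D04, D34, D48 and D52, against 6.68, 6.47, 6.70 and 6.50 in the controls (D02, D40, D50, D58). All cases lay inside the control range. The difference was 0.0047 log2 (95% interval -0.16 to 0.17, limma adjusted p = 0.989) and 0.01 without the library labelled Case D52. Its mean of 6.59 lay just above the limit of the test.

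Aldh1a2 (1422789_at, chromosome 9), the enzyme that makes most of the embryo's retinoic acid, had the largest difference among the tested members. It read log2 8.78, 7.80, 8.92 and 9.31 in cases D04, D34, D48 and D52, against 9.45, 9.66, 9.14 and 9.35 in the controls (D02, D40, D50, D58). Cases D04, D34 and D48 were below every control, D34 furthest, and the library labelled Case D52 was above control D50. The means were 8.70 ± 0.64 in cases and 9.40 ± 0.22 in controls (SD, n = 4 each), a difference of -0.70 log2 (SE 0.27, 95% interval -1.29 to -0.11, limma adjusted p = 0.786), or 1.62-fold lower. The two-sided exact permutation p was 0.0571. Without the library labelled Case D52 the difference was -0.90 (SE 0.24, limma adjusted p = 0.222), or 1.87-fold lower, and without case D34 it was -0.40. Among male pups alone it was -0.27, and with array weights it was -0.51. The array of case D34 had the lowest weight of all (0.29). All 3 cases other than D52 lay below all controls in 7.04% of tested probe sets, and in 2 of the 8 tested members (Aldh1a2 and Rarb).

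Genes of the mesothelium, the cell layer covering the lung, put the pups in an order like that of Aldh1a2, as in part did other marker lists. Of 10 other mesothelium markers 9 were tested, 9 had a lower mean in cases and 0 passed, with a median difference of -0.46 (-0.73 without the library labelled Case D52). Their summed linear intensity was 5104, 3535, 5702 and 6777 in cases D04, D34, D48 and D52, against 6646, 7102, 5748 and 6325 in the controls (D02, D40, D50, D58). Upk3b, a uroplakin of mesothelial cells, read 9.27, 8.68, 9.42 and 10.05 in the cases and 9.99, 10.24, 9.58 and 10.01 in the controls. Wt1, the transcription factor of that layer, read 6.29, 5.74, 6.16 and 7.26 in the cases and 6.86, 7.21, 6.58 and 6.62 in the controls. In both groups the sum and Aldh1a2 put the pups in the same order. As a sum of linear intensities it weighs bright probe sets such as Krt8 (10.56 in control D02) more than dim ones such as Wt1. Bnc1 lay below the limit of the test, and the part of the mesothelium in the Aldh1a2 values was not tested. The sums of heart and skeletal muscle, smooth muscle, fibroblast, alveolar type 1 and adipose markers had the case order of Aldh1a2 too, but not its control order. The vascular endothelium sum had the control order of Aldh1a2 (38686, 39314, 35443 and 36586 in D02, D40, D50 and D58), but not its case order. Heart and skeletal muscle genes summed to 5533 to 25583 in cases and 19582 to 26933 in controls, with 10 of 11 lower in mean. Smooth muscle genes summed to 21963 to 26881 in cases and 28164 to 28903 in controls, with 10 of 11 lower in mean. Alveolar type 1 genes summed to 34111 to 47104 in cases and 45975 to 48649 in controls, with 12 of 12 lower in mean, and the part of these cells in the Aldh1a2 values was not tested.

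**Figure D4:**
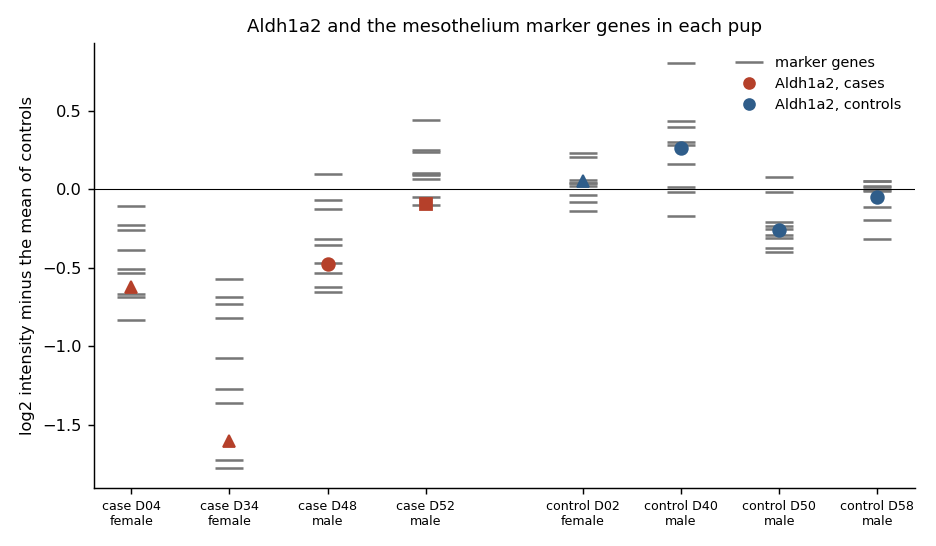
Log2 intensity minus the mean of controls (y axis) for Aldh1a2 (coloured points) and 9 tested mesothelium marker genes (grey dashes) in each pup. Aldh1a2 lies within the span of the markers in all 8 pups, lowest in case D34 and near 0 in the library labelled Case D52.

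Cyp26b1 (1460011_at, chromosome 6), which degrades retinoic acid, showed no difference beyond the spread between pups. It read log2 7.99, 8.07, 8.03 and 7.74 in cases D04, D34, D48 and D52, against 8.01, 8.10, 8.04 and 7.92 in the controls (D02, D40, D50, D58). The library labelled Case D52 was the lowest of the 8, and the other 3 cases lay inside the control range. The difference was -0.06 (95% interval -0.25 to 0.13, limma adjusted p = 0.883) and 0.01 without that library, so its sign rested on D52.

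Rarb (1454906_at, chromosome 14), the receptor that is itself a target of retinoic acid, was the member whose groups did not overlap. It read log2 6.66, 6.19, 6.76 and 6.97 in cases D04, D34, D48 and D52, against 7.08, 7.06, 7.03 and 6.99 in the controls (D02, D40, D50, D58). All 4 cases lay below all 4 controls, though D52 missed the lowest control by little. These values were not scaled further, and the array medians ran from 7.02 to 7.12. With median centring the Rarb difference was -0.35, and whether the groups stay apart after such scaling was not tested. Controls spanned a narrow range, with means of 6.65 ± 0.33 in cases and 7.04 ± 0.04 in controls (SD, n = 4 each). The difference was -0.40 log2 (SE 0.14, 95% interval -0.70 to -0.09, limma adjusted p = 0.786), or 1.32-fold lower. The two-sided exact permutation p was 0.0286, the smallest that 70 arrangements allow, computed for 9 member genes, and 2.34% of all tested probe sets had all cases below all controls. Without the library labelled Case D52 the difference was -0.50 (SE 0.13, limma adjusted p = 0.204), and without case D34 it was -0.24. Among male pups alone it was -0.16, and with array weights it was -0.35.

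Rara (1450180_a_at, chromosome 11), the receptor found in most tissues, read log2 7.07, 6.92, 6.71 and 7.14 in cases D04, D34, D48 and D52, against 7.03, 7.32, 7.06 and 6.87 in the controls (D02, D40, D50, D58). The groups overlapped, and the difference was -0.11 (95% interval -0.37 to 0.15, limma adjusted p = 0.845), or -0.17 with the library labelled Case D52 omitted. Rarg (chromosome 15), the receptor known from skin and cartilage, had a brighter probe set (1419415_a_at) that read 9.25, 9.22, 9.48 and 9.44 in the cases and 9.37, 9.31, 9.42 and 9.43 in the controls, in the same order. Cases D04 and D34 were below all controls and D48 and D52 above all controls, and the difference was -0.04 (95% interval -0.21 to 0.14, limma adjusted p = 0.926), or -0.07 without the library labelled Case D52. Its dimmer probe set (1419416_a_at) read 7.54, 7.66, 7.79 and 7.65 in the cases and 7.76, 7.98, 7.68 and 7.76 in the controls. Cases D04, D34 and D52 were below all controls there. That difference was -0.14 (95% interval -0.32 to 0.05, limma adjusted p = 0.786), or -0.13 without that library, so both Rarg probe sets had a lower mean in cases.

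Among the cases, Aldh1a2 and Rarb shared the order D34, D04, D48, D52 from low to high, the reverse of the Fgf18 levels in these pups. That order occurred in 6.46% of all tested probe sets, and in 2 of the 8 members. Cases D34 and D04 were read as female and D48 and D52 as male, so in this order Fgf18 level and sex cannot be told apart. Over the 8 pups Aldh1a2 and Rarb had a Pearson r of 0.97, and 0.96 after each group's mean was taken out, given as a description since all values come from the same arrays. Stra6 and Crabp1, both dim, had an r of 0.92. In the authors' deposited table a column of log2 ratios of D04 over D02, both read as female, held -0.67 for Aldh1a2. In the authors' deposited table that ratio was -0.42 for Rarb, -0.42 for Rbp4 and -1.36 for Crabp1.

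The 3 members with the largest SD over pups were Rbp4, Crabp1 and Aldh1a2, and the genes with the most similar pattern were sought among 12306 other genes by Pearson correlation over the 8 pups. Closest to Aldh1a2 were Pid1 (r = 0.991), Gpm6a (r = 0.990), which is among the mesothelium markers, and the serine protease gene Tmprss2 (r = 0.989). Closest to Rbp4 were Nfya (r = 0.992), a subunit of the CCAAT-binding factor, the aminopeptidase gene Rnpep (r = 0.975) and Tmem129 (r = 0.974). Closest to Crabp1 were Tmem231 (r = 0.960), the cadherin gene Cdh6 (r = 0.950) and Trpm1 (r = 0.949). With 8 arrays and so many genes, correlations of this size are a description only.

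The rest of the retinoid pathway was set beside the members as 3 lists. Of 38 genes of uptake, storage and metabolism, 23 were tested and 0 passed in either direction, with a median difference of -0.02. Aldh1a1, the retinaldehyde dehydrogenase of airway cells, read 11.33, 10.03, 10.99 and 11.56 in cases D04, D34, D48 and D52, against 11.80, 11.62, 11.59 and 11.77 in the controls (D02, D40, D50, D58). No case reached a control, and 2.34% of all tested probe sets had all cases below all controls. The Aldh1a1 difference was -0.72 (SE 0.27, limma adjusted p = 0.786). With the library labelled Case D52 omitted it was -0.91 (limma adjusted p = 0.226), but -0.40 without case D34, -0.45 with array weights and -0.39 among male pups. Genes of club and ciliated airway cells were lower in mean in 12 of 12 markers, Aldh1a1 among them, with 0 passing and a sum of 27459 to 60394 in cases against 54939 to 64653 in controls. The part of airway cells in the Aldh1a1 values was not tested. Dhrs3, which reduces retinaldehyde back to retinol and responds to retinoic acid, differed by -0.26, and Fabp5, a fatty acid carrier that also binds retinoic acid, by -0.25. Adh7, an alcohol dehydrogenase that oxidises retinol, differed by -0.14. Retsat, which saturates retinol, differed by 0.25, and Lpl, the lipase that releases retinyl esters from lipoproteins for uptake, by 0.49 (limma adjusted p = 0.786 for each of these 5 genes). Without case D34 Lpl differed by 0.24. The groups of Fabp5, Adh7 and Retsat did not overlap either, with the cases above the controls in Retsat alone. The share of all probe sets with all cases above all controls is not given here. Genes of this list were named for a small p, which favours groups without overlap. Adh7 was dim, from 6.48 in case D04 to 6.75 in control D50, near the limit of the test. After quantile normalization the Adh7 difference was -0.067.

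Of 22 receptor partners and cofactors, 18 were tested and 0 passed in either direction, with a median of 0.01. Rxrg, an RXR partner of the RARs, differed by -0.18 and the orphan receptor Nr2f1 by -0.15. The orphan receptor Rora differed by 0.30, Zbtb16 by 0.37, the coactivator Ncoa1 by 0.15 and the histone deacetylase Hdac3 by 0.10 (limma adjusted p = 0.786 to 0.851 over these 6 genes). For Rora, 2 of 8 other tested probe sets had the opposite sign, and for Zbtb16 1 of 2. Without case D34 the difference was 0.036 for Rora, 0.041 for Zbtb16, 0.074 for Ncoa1, -0.072 for Nr2f1 and -0.12 for Rxrg. Without control D40 it was 0.041 for Ncoa1 and 0.018 for Hdac3. Among male pups it was -0.032 for Rora and -0.17 for Zbtb16, and with array weights -0.023 for Ncoa1, so these 3 signs turned.

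Of 48 genes known to respond to retinoic acid, 37 were tested and 0 passed in either direction, with 18 lower and 19 higher in mean and a median of 0.01. Elastin (Eln), the elastic fibre protein of alveolar walls, read 12.54, 12.21, 12.42 and 12.70 in cases D04, D34, D48 and D52, against 12.70, 13.14, 12.70 and 12.70 in the controls (D02, D40, D50, D58). Its difference was -0.35 (SE 0.13, limma adjusted p = 0.786), and D52 lay just below 3 of the controls. Pdgfa, a growth factor of alveolar myofibroblasts, differed by -0.52, the homeobox gene Meis1 by -0.40, the transglutaminase Tgm2 by -0.38 and the cell cycle inhibitor Cdkn1a by -0.24. Tbx5, a transcription factor of lung mesenchyme, differed by 0.36 (limma adjusted p = 0.786 for each of these 5 genes). Without case D34 the differences were -0.29 for Pdgfa, -0.21 for Meis1, -0.19 for Tgm2, -0.11 for Cdkn1a and 0.17 for Tbx5. Among male pups Tgm2 differed by -0.061. For Meis1, 1 of 2 other tested probe sets had the opposite sign. Eln and Pdgfa had all cases below all controls, as 2.34% of all tested probe sets did. Tbx5 had all cases above, a direction whose share over all probe sets is not given here. These genes were named for a small p in their list, which favours groups without overlap. Only 5 of the 31 genes with the spaced hexamer repeat in a RefSeq promoter were tested, Rarb among them, and 4 of the 5 were lower in mean with 0 passing. Over all probe sets 53.9% had a lower mean. The repeat was looked up because of Rarb's own values, so Rarb adds nothing to this count. Rarb alone of the 5 had an unadjusted limma p under 0.05.

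**Figure D5:**
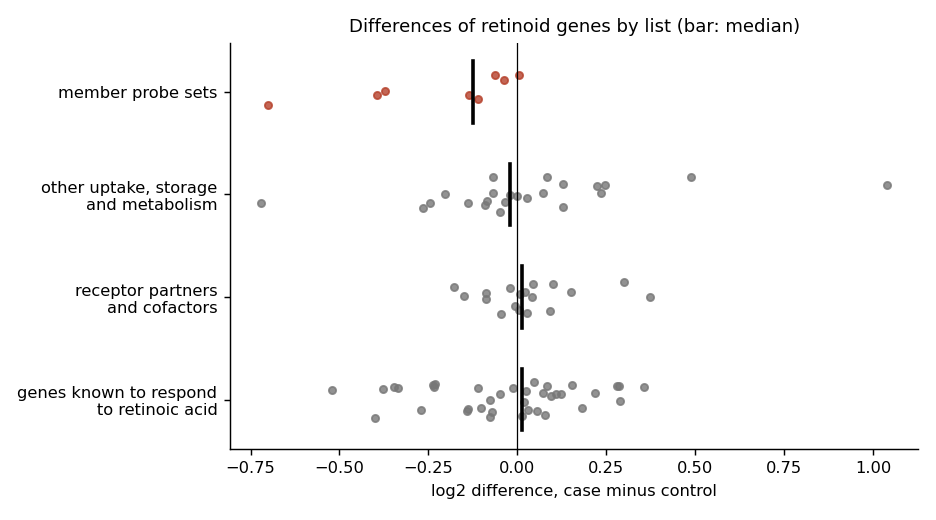
Log2 difference, case minus control (x axis), of the 8 tested member probe sets (red) and of tested genes in 3 retinoid lists (grey), with medians as bars. The members' median is -0.12 and the list medians lie between -0.02 and 0.01.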

How the data were processed

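The authors deposited probe set intensities on a linear scale for 8 arrays, and affy is named in the submitters' processing notes; how probes were summarised and normalized is not stated in the sources used here. The deposited tables hold the same intensities, and a log2 ratio column in the authors' table equalled log2 of D04 over D02 in 45101 of 45101 rows. Symbols come from the platform annotation, updated through the RefSeq gene table (GRCm38.p6): 34945 probe sets had 1 symbol, 932 several and 9160 none. Intensities were taken to log2 without scaling, 64 control probe sets were removed, and 27022 probe sets were tested by limma 3.58.1 (lmFit, eBayes; R 4.3.3), tested on simulated data, case minus control, adjusted over all of them. The brightest probe set stands for a gene. Labels do not tie pups to litters or say more of their independence, so litter was not fitted. Named genes are all members, Fgf18, up to 4 called genes per direction in each retinoid list, filled to 6 by smallest p, 11 markers and, for the 3 most variable members, the 3 most correlated genes. The members, lists and markers were chosen with earlier results of these data known. List genes without a probe set here were not analysed here.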

Additional observations from a re-analysis of the deposited data

Results flagged for a closer look

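In 78 groups of 4 pups, over the member probe sets and the named genes, 8 held a pup whose gap to its nearest neighbour exceeded Dixon's critical value for 4 samples; chance alone gives a share of about 0.05. Among cases, the library labelled Case D52 was far above the others in Crabp1 (6.07). Case D34 was furthest from the other cases in Retsat (8.57, high), Pdgfa (8.88, low), Tbx5 (10.71, high) and Scgb1a1 (13.48, low). Among controls, D40 was furthest in Fgf18 (7.76, high), Eln (13.14, high) and Hdac3 (9.13, low).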

How the results depend on the processing

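No paired analysis was possible because the titles share no pup numbers between the groups and do not tie pups to litters. Only D04 and D02 are set together, by the authors' ratio column, named Rep1, which does not say that they are littermates. Under 9 planned settings and with each pup left out in turn, 0 member probe sets and 0 other retinoid list genes passed. The number of tested member genes with a lower mean was 6 of 7 in the main fit. It was 5 of 7 with median centring, 7 of 7 with sex as a covariate and 4 of 7 in male pups only. With no filter it was 8 of 9, with the filter at the 60th percentile 4 of 4, and with a pup left out 5 to 7. The count over the whole array was 2. It was 1 in the gene-level fit, 5 with array weights (Abca3, Scd1, Vnn1 and Abi3bp), 4 with sex as a covariate (Abca3, Afp and Fbp1) and 6 in male pups only (Abca3 and Afp), and 0 to 15 with a pup left out, 15 without the library labelled Case D52 and 0 without case D04 or D48 or control D02, D40 or D58. The cause was not tested. Aldh1a2, Rarb, Crabp1 and Stra6 kept their sign in all settings run, with differences over pups left out of -0.90 to -0.40, -0.50 to -0.24, -1.10 to -0.76 and -0.16 to -0.09. In male pups they were -0.27, -0.16, -0.52 and -0.059, and Stra6 was -0.026 after quantile normalization. Rbp4 ran from -0.63 to -0.036 (without case D34) with a pup left out and turned to 0.21 in male pups. Other differences changed sign. In male pups Rarg was 0.071, Rora -0.032, Zbtb16 -0.17, Tcf21 -0.012 and Pecam1 0.026. With array weights Crabp2 was -0.047, Rara 0.014, Ncoa1 -0.023 and Pecam1 0.079. Crabp2 was -0.0090 with sex as a covariate, and with median centring Rarg was 0.014 and Pecam1 0.015. With a pup left out, Crabp2 ran between -0.035 and 0.043, Cyp26b1 between -0.099 and 0.012, Rarg between -0.079 and 0.0058 and Pecam1 between -0.075 and 0.034. Fgf18 differed by 2.85 (limma adjusted p = 0.786) and passed with the library labelled Case D52 omitted (3.66, limma adjusted p = 0.0360), a library singled out for its Fgf18 level. Dim probe sets, Crabp1 and Stra6 above all, limit what these arrays can show.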

Other observations

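Cells that store or carry lipid and retinoids in the lung gave a mixed picture, with no gene passing the test over 8 pups. Plin2, which coats the lipid droplets of lipofibroblasts, read 11.62, 11.70, 11.57 and 11.31 in cases D04, D34, D48 and D52, against 11.28, 11.16, 11.51 and 11.35 in the controls (D02, D40, D50, D58). Its difference was 0.22 (limma adjusted p = 0.786), and D52 lay within the controls. Tcf21, the transcription factor of lung fibroblasts, differed by 0.05. The list of lipofibroblast and interstitial fibroblast markers had a median of -0.09 over 15 of 17 genes, with 9 lower in mean. Of these genes, 7 were lower and 1, Lpl, was higher at an unadjusted limma p under 0.05. Over all probe sets 4.02% were lower and 1.94% higher at that p. In the same way 8 of 12 club and ciliated genes and 6 of 11 smooth muscle genes were lower, and 0 higher. The matrix genes Dcn, Lum and Col1a1 differed by -1.16, -1.39 and -0.54 (limma adjusted p = 0.786 for each), named here after their values were seen. With the library labelled Case D52 omitted, Dcn alone in the fibroblast list passed (-1.74, limma adjusted p = 0.0360), while Lum (-2.02) and Col1a1 (-0.70) did not.

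Of the other marker lists, the median difference was -0.34 for smooth muscle and myofibroblast genes, -0.07 for vascular endothelium, -0.07 for alveolar type 2 cells (7 of 11 genes lower in mean, 1 of them, Abca3, passing), -0.19 for alveolar type 1 cells, -0.48 for club and ciliated cells, -0.08 for macrophages, -0.67 for heart and skeletal muscle, 0.05 for cartilage, 0.88 for liver and -0.23 for adipose tissue, where 3 of 10 markers were tested and Adipoq lay below the limit. Pecam1 differed by -0.03, Sftpc by 0.03, Scgb1a1 by -0.29 and Msln by -0.31, and none of the 4 passed.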
